A study of Homo sapiens with 72 samples.

Results

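The ERK pathway carries growth factor signals from receptor tyrosine kinases through RAS, RAF and MEK to the kinase ERK, which enters the nucleus and switches on a set of genes. Many of these genes encode brakes on the same pathway, so that their mRNA serves as a readout of signal output and as part of its negative feedback. The 10 genes described here are such output and feedback genes. SPRY1, SPRY2 and SPRY4 encode Sprouty proteins, adaptors that damp signalling between receptors and RAF. SPRED1, SPRED2 and SPRED3 encode Sprouty-related proteins with an EVH1 domain, of which SPRED1 brings the RAS inactivator neurofibromin to the membrane. IL17RD, also called SEF, encodes a membrane protein that restrains FGF receptor and ERK signalling. ETV1, ETV4 and ETV5 encode the PEA3 group of ETS transcription factors, which act downstream of FGF receptors. All 10 genes were found by name among the 60371 genes of each expression table. They were chosen by their place in the pathway and by the change of IL17RD at 10000 nM MK-2206 against DMSO, so the values of that contrast are given below as a description with no test.

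RNA-seq of whole wells of U2OS, an osteosarcoma line of human origin, was done in 72 wells of 24-well plates. 18 wells received DMSO, the vehicle, and 54 wells received 1 of 6 compounds for 12 h, with 3 wells for each compound at 100 nM, 1000 nM and 10000 nM. The compounds were Triptolide, which blocks transcription by RNA polymerase II through the TFIIH subunit XPB; Homoharringtonine, which blocks protein synthesis at the ribosome; Nilotinib, an inhibitor of the ABL, KIT and PDGF receptor kinases; Pyrazolanthrone, a JNK inhibitor also known as SP600125; MK-2206, an allosteric AKT inhibitor; and Miglitol, an inhibitor of intestinal alpha-glucosidases. All wells held the same line with no genetic change, and no ERK pathway inhibitor was among the compounds. The labels name each well separately but do not say whether wells came from separate cultures, and the p-values measure the spread between wells.

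Summed expected counts ran from 70767 to 68296309 per well, with a median of 38.4 mil. 3 libraries were under 10 mil, namely DMSO replicate 10 with 460014 counts, triptolide 100 nM replicate 2 with 70767 counts and triptolide 1000 nM replicate 1 with 9.63 mil, and values that turn on them are given with and without them. Of the marker genes of the line, VIM, CDH2 and the osteoblast gene COL1A1 were high in DMSO. Their median TPM (a level scaled to gene length and library) was 1868, 75.9 and 452. The other osteoblast genes were lower, with SPP1, RUNX2, ALPL and BGLAP at 12.0, 3.81, 3.79 and 0.425 TPM and SP7 at a median of 0. The epithelial genes EPCAM and CDH1 had medians of 2.38 and 0.40 TPM, and the leukocyte gene PTPRC and the endothelial gene PECAM1 of 0.035 and 0.11 TPM. In bulk RNA, fewer cells expressing a gene and less RNA of that gene per cell cannot be told apart.

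To show what lies in front of these genes, 300-base windows from RefSeq (GRCh38.p14; 250 bases before and 50 after a start site, printed 5′ to 3′ on the gene's strand) were searched on both strands for the letters TGAATGAA and TGAATGGA, bound by the ERK-regulated repressor CIC, CCGGAA, the core of many ETS sites, TGANTCA, the AP-1 site, and GTAAACA, the forkhead (FOXO) site. There were 19 windows for 8 of the 10 genes, several of them overlapping. Matches are in capitals. Windows of SPRY2, ETV1 and SPRED3 are shown because they hold matches and these members rose or fell below, and that of IL17RD because this member moved most with MK-2206. The SPRED3 window shown is at an inner start, 1370 bases from the annotated gene start. The SPRED3 window nearest to the gene start held 0 matches.
SPRY2, chr13:80341077-80341376, minus strand, with CCGGAA in capitals: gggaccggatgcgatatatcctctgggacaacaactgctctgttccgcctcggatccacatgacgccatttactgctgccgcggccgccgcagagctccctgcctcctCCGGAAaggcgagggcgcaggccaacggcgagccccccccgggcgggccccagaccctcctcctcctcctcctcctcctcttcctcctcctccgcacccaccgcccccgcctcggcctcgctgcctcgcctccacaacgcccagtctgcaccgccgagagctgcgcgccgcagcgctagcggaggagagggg
ETV1, chr7:13991376-13991675, minus strand, with CCGGAA and TGAATGGA in capitals: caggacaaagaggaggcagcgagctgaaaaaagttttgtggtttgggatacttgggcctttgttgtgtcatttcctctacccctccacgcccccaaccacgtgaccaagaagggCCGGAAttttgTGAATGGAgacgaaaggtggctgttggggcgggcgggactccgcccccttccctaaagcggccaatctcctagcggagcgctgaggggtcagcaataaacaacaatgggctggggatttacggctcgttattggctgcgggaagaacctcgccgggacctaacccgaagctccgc
SPRED3, chr19:38389541-38389840, plus strand, with TGAATGAA and the AP-1 match in capitals: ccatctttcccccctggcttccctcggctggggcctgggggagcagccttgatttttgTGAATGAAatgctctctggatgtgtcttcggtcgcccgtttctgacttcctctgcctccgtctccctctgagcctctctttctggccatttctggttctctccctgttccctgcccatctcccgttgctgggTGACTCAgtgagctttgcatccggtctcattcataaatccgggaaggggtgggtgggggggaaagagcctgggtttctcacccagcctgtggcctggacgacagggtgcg
IL17RD, chr3:57170268-57170567, minus strand, with no match: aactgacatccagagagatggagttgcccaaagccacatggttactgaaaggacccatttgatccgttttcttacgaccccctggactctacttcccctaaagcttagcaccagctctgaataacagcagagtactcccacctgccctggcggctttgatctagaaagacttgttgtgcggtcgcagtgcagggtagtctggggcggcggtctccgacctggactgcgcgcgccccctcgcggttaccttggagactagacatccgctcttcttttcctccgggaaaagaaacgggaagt

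TGAATGAA stood in 1 of the 19 windows, at the inner start of SPRED3, and TGAATGGA in 1, of ETV1, where 1.65% and 1.03% of all 35116 RefSeq windows of this length hold them. CCGGAA was in 5 of the 19 windows, 3 of them of ETV1, against 17.2% of all windows. Of those 3, 2 overlap and hold the same site. TGANTCA was in 2 windows, 1 at the same inner start of SPRED3 and 1 at an inner start of SPRED2, against 7.71%, and GTAAACA was in 0, against 3.42%. The windows of IL17RD, SPRED1 and SPRY4 held none of these letters. The only SPRY4 window lay at an inner start, 2208 bases from the annotated gene start, so the stretch at that gene start was not searched. A match marks letters only, and binding was not measured.

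In DMSO wells the members were expressed over a wide range. ETV4 was the most abundant, with 111 to 177 TPM and a median of 142. ETV5 followed with 34.3 to 64.2 TPM and a median of 51.1, and SPRED2 with 38.5 to 55.1 TPM and a median of 45.8, so that these neighbours overlapped. SPRED1 had a median of 17.2 TPM (11.9 to 23.9) and did not overlap with the genes above it. Below it, SPRY2, SPRED3, ETV1 and IL17RD lay close together, with medians of 5.28, 5.07, 3.46 and 3.18 TPM and overlapping ranges. The highest SPRED3 value, 12.5 TPM, and the lowest ETV1 value, 0 TPM, both came from the shallow DMSO replicate 10. SPRY4 was low, with 0.52 to 1.84 TPM and a median of 0.88.

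SPRY1 was close to absent in these cells. Its counts were 0 to 3 in every DMSO well and summed to 13 over 18 wells, and the highest count in any of the 72 wells was 10, in triptolide 100 nM replicate 1. It did not pass the filter on low counts and was in none of the tests that used that filter, so that 9 members were tested. SPRY3, the Sprouty gene that is not a member, was tested and was differentially expressed only with triptolide, by -2.85 ± 0.39 and -2.17 ± 0.28 (SE) at 1000 nM and 10000 nM on the log2 scale (edgeR, adjusted p = 5.4e-07 and 2.5e-07).

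The members were compared with DMSO at each compound and dose by edgeR's quasi-likelihood test. A gene was called differentially expressed when its Benjamini-Hochberg adjusted p over all genes was under 0.05 and its log2 fold change was larger than 1 in size. Homoharringtonine and triptolide moved the most members, in opposite directions for several. SPRY4 was raised in 9 of the 18 comparisons and lowered in 2, the most of any member. IL17RD was raised in 4 and lowered in 5, and SPRY2 raised in 4 and lowered in 2. ETV4 was called in 0 of the 18 comparisons, with log2 fold changes of -0.96 to 0.79. The counts for SPRY4 and IL17RD include the MK-2206 contrast by which the genes were chosen, and all 18 comparisons share the DMSO wells.

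**Figure D1:**
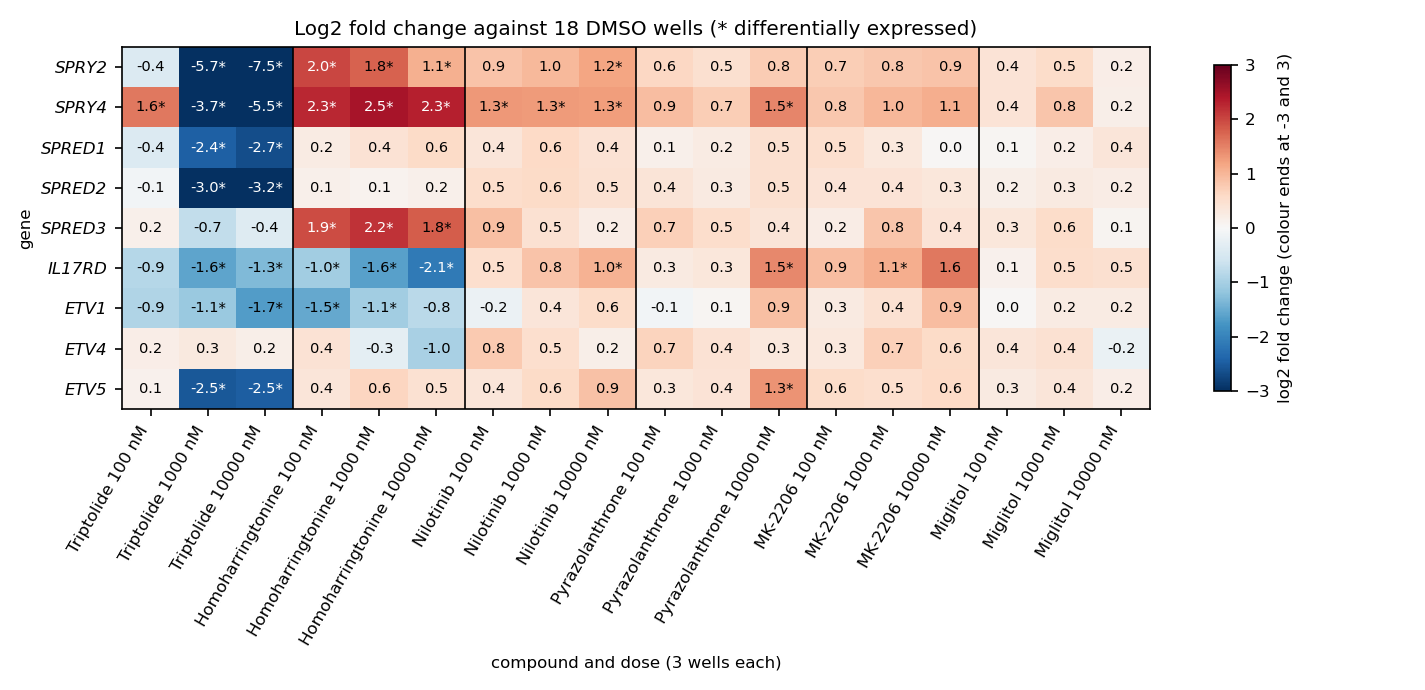
Log2 fold change of the 9 tested members (rows) against the 18 DMSO wells at each compound and dose (columns, 3 wells each), with blue for lower and red for higher and a star where differentially expressed. No star is drawn for 10000 nM MK-2206. At 1000 nM and 10000 nM triptolide 7 members are starred blue, homoharringtonine raised SPRY2, SPRY4 and SPRED3 and lowered IL17RD, and the columns of the other compounds are mostly pale red.

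With homoharringtonine, Sprouty genes and SPRED3 rose and IL17RD fell. SPRY2 read 19.1, 17.4 and 18.9 TPM at 100 nM, 16.4, 17.2 and 19.4 at 1000 nM and 12.2, 12.3 and 12.0 at 10000 nM, against 3.68 to 6.64 in DMSO. All 9 treated wells were above every DMSO well. The log2 fold changes were 2.00 ± 0.13 (SE, n = 3 against 18), 1.76 ± 0.13 and 1.06 ± 0.14 (edgeR, adjusted p = 8.5e-13, 1.1e-11 and 3.9e-07), and the rise shrank with dose, with a slope of -0.48 ± 0.07 log2 per 10-fold dose over the 9 treated wells (edgeR, adjusted p = 0.00039). Scaled to mitochondrial mRNAs the 10000 nM value was 0.81 and not called. SPRY4 read 3.13, 3.67 and 4.36 TPM at 100 nM, 4.85, 5.38 and 4.04 at 1000 nM and 4.58, 4.78 and 4.23 at 10000 nM, again above all DMSO wells. Its log2 fold changes of 2.26 ± 0.23, 2.48 ± 0.23 and 2.34 ± 0.23 (edgeR, adjusted p = 7.0e-09, 1.0e-09 and 2.6e-09) were the largest of any member with this compound.

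Among the SPRED genes only SPRED3 was called with homoharringtonine. Its wells read 12.7, 16.4 and 19.6 TPM at 100 nM, 24.4, 18.1 and 16.7 at 1000 nM and 19.2, 19.7 and 18.8 at 10000 nM, all above the DMSO range. The log2 fold changes were 1.95 ± 0.17, 2.17 ± 0.18 and 1.82 ± 0.17 (edgeR, adjusted p = 5.5e-10, 1.4e-10 and 6.1e-10). SPRED1 and SPRED2 did not reach the fold threshold, with log2 fold changes of 0.25 to 0.57 and 0.12 to 0.15.

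IL17RD fell with homoharringtonine at each dose, in the same wells in which SPRY2, SPRY4 and SPRED3 rose. It read 1.15, 1.32 and 1.38 TPM at 100 nM, 0.77, 1.02 and 0.88 at 1000 nM and 0.76, 0.48 and 0.67 at 10000 nM, with all 9 wells below the lowest DMSO well (1.82). The log2 fold changes were -1.04 ± 0.14, -1.63 ± 0.15 and -2.13 ± 0.15 (edgeR, adjusted p = 5.4e-07, 1.5e-09 and 9.0e-12), and the slope with dose was -0.56 ± 0.10 log2 per 10-fold (edgeR, adjusted p = 0.0013). Without replicate 3 the 100 nM value was -0.94 and no longer called, and without replicate 2 the slope was -0.50 with an adjusted p of 0.051 from edgeR.

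The ETV genes diverged from each other with homoharringtonine. ETV1 read 1.05, 1.40 and 1.03 TPM at 100 nM against a DMSO median of 3.46, below every DMSO well but the shallow replicate 10, a log2 fold change of -1.53 ± 0.21 (edgeR, adjusted p = 6.5e-07). At 1000 nM it was -1.05 ± 0.19 (edgeR, adjusted p = 3.4e-05; -0.93 and not called without replicate 1), and at 10000 nM -0.82 ± 0.18, short of the fold threshold. ETV4 was at 141, 167 and 184 TPM at 100 nM, with 1 well above the DMSO range, and at 78.8, 78.5 and 71.7 TPM at 10000 nM, with all below it. Its slope was -0.71 ± 0.09 log2 per 10-fold dose (edgeR, adjusted p = 0.00018). ETV5 stayed between 56.6 and 69.6 TPM over all 9 wells, with log2 fold changes of 0.36 to 0.64.

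In all, 3 of the 9 tested members were raised and 2 lowered at 100 nM, where 15.6% of the 18848 tested genes were raised and 19.3% lowered. At 1000 nM the members were again 3 and 2, against 21.5% and 20.9%, and at 10000 nM 3 and 1, against 23.6% and 23.4%. The median log2 fold change of the members was 0.36, 0.43 and 0.46, against -0.03, -0.01 and -0.05 over all genes tested. 3 members (SPRY2, IL17RD and ETV4) had a downward slope with dose, against 22.9% of all genes. 1 member (ETV1, 0.34 ± 0.12, edgeR adjusted p = 0.038) had an upward slope, against 21.1%, and lost it without any 1 of the 3 replicates. The dependence of a well's expression on GC content, as log2 units for each 10-point step in GC, was -0.68 to 0.07 in homoharringtonine wells and -0.45 to 0.32 in DMSO wells, and its part in these values was not tested.

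**Figure D2:**
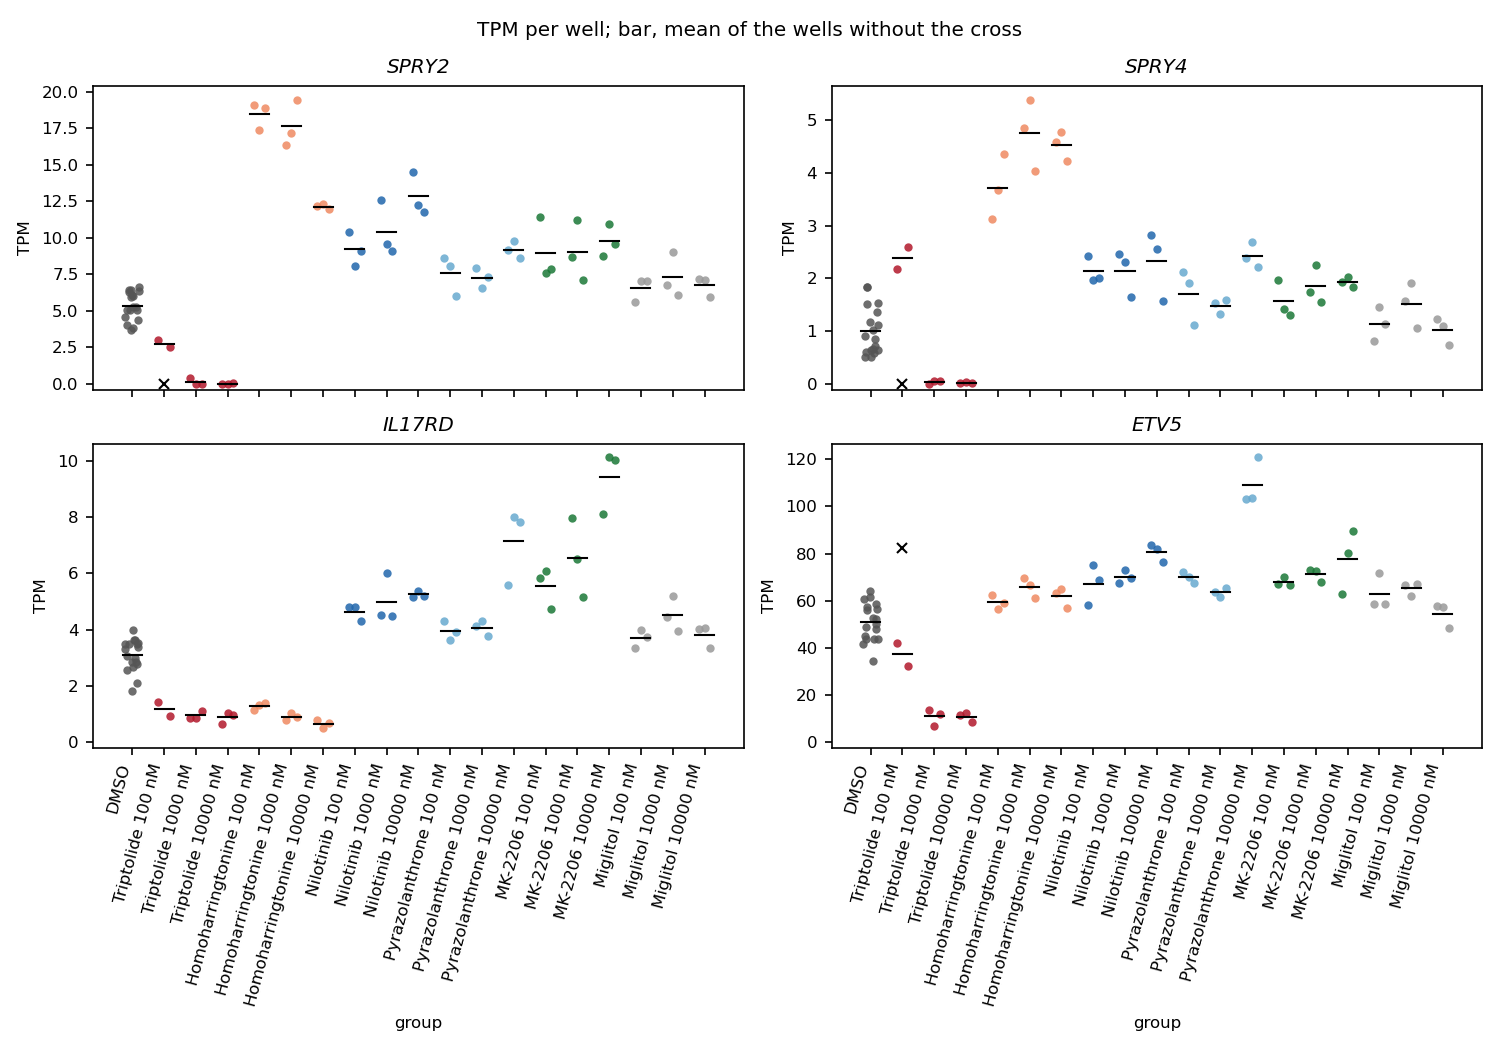
TPM in every well (points) for SPRY2, SPRY4, IL17RD and ETV5 by group, with DMSO in grey (18 wells) and 3 wells for each compound and dose, and a bar at the mean. The library of 70767 counts is drawn as a cross and left out of the mean, and its IL17RD value, which rests on 1 count, is not drawn. Homoharringtonine wells are the highest for SPRY4 and, at 100 nM and 1000 nM, for SPRY2, MK-2206 10000 nM wells for IL17RD and pyrazolanthrone 10000 nM wells for ETV5.

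Triptolide left little mRNA of most members at its upper doses. SPRY2 had counts of 5, 0 and 2 in the 1000 nM wells and 0, 0 and 3 in the 10000 nM wells. Summed over wells and set against DMSO in CPM, the ratio was 0.0115 at 1000 nM (95% exact counting interval 0.00464 to 0.0238) and 0.0035 at 10000 nM (0.000722 to 0.0102). The fitted log2 fold changes of -5.74 ± 0.46 and -7.48 ± 0.42 (edgeR, adjusted p = 5.7e-11 and 4.8e-14) rest on these few reads and on edgeR's prior count. 5 of the 7 reads at 1000 nM came from the library of 9.63 mil, and without libraries under 10 mil the value was -7.45.

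SPRY4 went up at the lowest dose of triptolide and down above it. At 100 nM it read 2.18 and 2.59 TPM in replicates 1 and 3, above all DMSO wells, and 0 in the library of 70767 counts. At 1000 nM it had 0, 2 and 9 counts and at 10000 nM 1, 2 and 1, for ratios to DMSO of 0.0561 (0.0279 to 0.101) and 0.0144 (0.00393 to 0.037). The log2 fold changes were 1.59 ± 0.30, -3.69 ± 0.52 and -5.47 ± 0.55 (edgeR, adjusted p = 8.5e-05, 9.5e-07 and 2.9e-09), and the step from 100 nM to 1000 nM, in a fit over all 72 wells, was -5.23 ± 0.48 (edgeR, adjusted p = 3.4e-14). Without the shallow libraries the 100 nM value was 1.64. Scaled to the mitochondrial mRNAs it was -0.10 and not called.

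SPRED1, SPRED2 and ETV5 fell together from 100 nM to 1000 nM. SPRED2 read 5.69, 8.81 and 4.69 TPM at 1000 nM and 4.55, 4.41 and 3.64 at 10000 nM, against at least 38.5 in DMSO, with log2 fold changes of -2.99 ± 0.14 and -3.25 ± 0.14 (edgeR, adjusted p = 3.4e-15 and 2.3e-16). SPRED1 was at -2.44 ± 0.23 and -2.67 ± 0.20 (edgeR, adjusted p = 8.2e-10 and 1.6e-11), and its wells read 1.97 to 2.96 TPM over both doses. ETV5 read 13.6, 6.88 and 11.9 TPM at 1000 nM and 11.2, 12.4 and 8.49 at 10000 nM, with log2 fold changes of -2.53 ± 0.19 and -2.46 ± 0.18 (edgeR, adjusted p = 2.5e-11 and 6.1e-12). Within the triptolide wells, the step from 100 nM to 1000 nM was called for 4 of 8 members, SPRY2, SPRED1, SPRED2 and ETV5 (log2 fold changes of -5.09, -2.07, -2.90 and -2.66), against 17.1% of genes lowered, and the step from 1000 nM to 10000 nM for 0 of 8, against 0.0971% of genes.

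IL17RD and ETV1 were also lowered. IL17RD read 0.86, 0.85 and 1.11 TPM at 1000 nM and 0.63, 1.04 and 0.97 at 10000 nM, with log2 fold changes of -1.58 ± 0.19 and -1.31 ± 0.14 (edgeR, adjusted p = 5.0e-08 and 8.3e-09). At 100 nM its value was -0.86 ± 0.19, short of the fold threshold, and the 33.5 TPM of the shallow replicate 2 stands for 1 read. ETV1 was -1.10 ± 0.28 at 1000 nM and -1.69 ± 0.20 at 10000 nM (edgeR, adjusted p = 0.0011 and 6.7e-08). At 1000 nM its wells read 3.05 TPM in the library of 9.63 mil and 0.58 and 0.45 in the others. The value was -1.75 without libraries under 10 mil, -0.99 and not called by DESeq2, and -0.90 and -0.74, not called, without replicate 2 or 3.

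ETV4 and SPRED3 were not called with triptolide. ETV4 read 91.9, 90.3 and 101 TPM at 10000 nM, below the DMSO range, but its log2 fold change was 0.17 ± 0.12 on the TMM scale used here, -0.37 by library size and -2.64 scaled to mitochondrial mRNAs. SPRED3 read 1.65, 2.63 and 2.26 TPM at 10000 nM, also below the DMSO range, with a log2 fold change of -0.40 ± 0.22. The direction of a small change under triptolide thus depended on the scaling. Compared with TMM, scaling by library size moved the median over all genes by -0.34, -0.46 and -0.53 at the rising doses, and scaling to mRNAs of the mitochondrial genome, which RNA polymerase II does not make, by -1.65, -2.47 and -2.75. All values above are relative to the other mRNAs in the well.

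Against DMSO, 1 of the 9 members was raised and 0 lowered at 100 nM, where 11.4% and 20.9% of the tested genes were. At 1000 nM 0 members were raised and 7 lowered, where 13.9% and 30.4% of genes were, and at 10000 nM again 0 and 7, where 16.2% and 30.2% were. The median log2 fold change of the members was -0.08, -2.44 and -2.46, against -0.16, -0.21 and -0.17 over all genes. 4 of the 8 members in the dose fit, SPRY2, SPRED1, SPRED2 and ETV5, had a downward slope past the test, against 17.8% of genes, and SPRED1 lost it without replicate 3 (-1.08, edgeR adjusted p = 0.058).

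**Figure D3:**
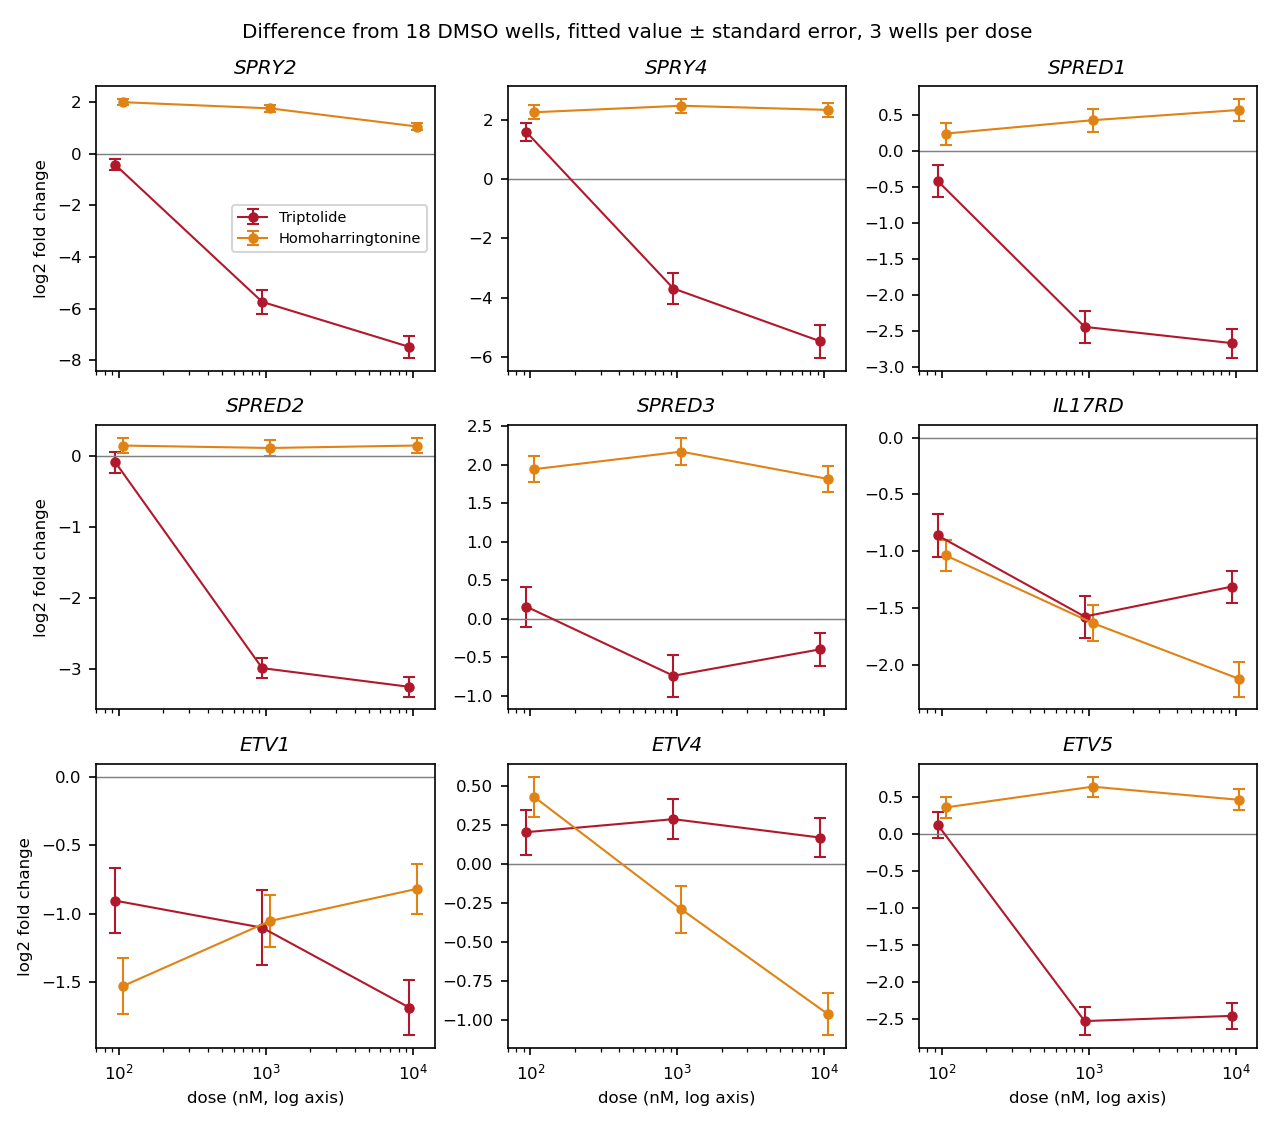
Fitted log2 fold change against 18 DMSO wells, with its standard error, by dose on a log axis for triptolide and homoharringtonine, 3 wells per point, in a panel for each of the 9 tested members. For SPRY2, SPRY4, SPRED1, SPRED2 and ETV5 the triptolide line drops from 100 nM to 1000 nM while the homoharringtonine line stays above 0, and for IL17RD both lines are below 0.

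The transcription and the translation inhibitor were also compared directly at matched doses, without DMSO wells. At 100 nM, SPRY2 and SPRED3 were lower with triptolide, with log2 fold changes of -2.33 ± 0.25 and -1.71 ± 0.31 (edgeR, adjusted p = 4.1e-07 and 0.00010), 2 of 9 members against 27.4% of tested genes lowered. At 1000 nM SPRY2, SPRY4, ETV5, SPRED2, SPRED3 and SPRED1 were lower, with log2 fold changes of -7.44 to -2.90, 6 of 9 against 35.9%. At 10000 nM these 6 were lower too, with -8.46 to -2.12, against 37.9%, and ETV4 was higher with triptolide, by 1.22 ± 0.08 (edgeR, adjusted p = 1.1e-07), 1 of 9 against 30.2% raised. ETV4 was at 0.63 by library size, not called, and -1.37 scaled to mitochondrial mRNAs.

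IL17RD, which was below DMSO with both compounds, differed between them by 0.25 ± 0.29 at 100 nM and 0.02 ± 0.38 at 1000 nM (edgeR, adjusted p = 0.47 and 0.96), and by 0.90 ± 0.14 at 10000 nM, with the higher level under triptolide and short of the fold threshold. ETV1 differed by 0.69 ± 0.39, -0.02 ± 0.49 and -0.78 ± 0.20 at the rising doses and was not called at any of them. The standard errors at 100 nM and 1000 nM include the shallow triptolide wells.

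The kinase inhibitors raised a few members. With nilotinib, SPRY4 read 2.43, 1.98 and 2.00 TPM at 100 nM, 2.47, 2.31 and 1.65 at 1000 nM and 2.83, 2.56 and 1.58 at 10000 nM. The wells overlapped the DMSO range, which reaches 1.84, at 1000 nM and 10000 nM with 1 well each. The log2 fold changes were 1.31 ± 0.26, 1.27 ± 0.25 and 1.26 ± 0.26 (edgeR, adjusted p = 0.0022, 0.0033 and 0.0012), and without replicate 1 the 1000 nM value was 1.18 with an adjusted p of 0.060 from edgeR.

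At 10000 nM nilotinib also raised SPRY2 and IL17RD. SPRY2 read 14.5, 12.3 and 11.7 TPM, all above DMSO, with a log2 fold change of 1.19 ± 0.14 (edgeR, adjusted p = 1.4e-06). IL17RD read 5.17, 5.39 and 5.20 TPM, all above DMSO, with 1.04 ± 0.12 (edgeR, adjusted p = 6.9e-07), and was not called at 0.93 without replicate 2 or at 0.94 with the GC dependence of each well as a covariate. ETV5 was at 0.88 ± 0.14, below the fold threshold, and had a slope of 0.24 ± 0.05 per 10-fold dose (edgeR, adjusted p = 0.038), 1 of 9 members against 2.11% of genes with an upward slope. The slope lost its call without any 1 of the 3 replicates.

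The members called with nilotinib numbered 1, 1 and 3 of 9 at the rising doses, all raised, where 0.702%, 0.745% and 2.41% of genes were raised. Scaled to mitochondrial mRNAs, which moved the median gene at 10000 nM by -0.69, SPRY2, SPRY4 and IL17RD at 10000 nM were at 0.52, 0.59 and 0.37 and not called.

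Pyrazolanthrone raised members at its top dose. ETV5 read 103, 104 and 121 TPM at 10000 nM, its highest wells in the series, with a log2 fold change of 1.34 ± 0.13 (edgeR, adjusted p = 5.0e-07; 0.98 and not called when scaled to mitochondrial mRNAs). IL17RD read 5.60, 8.0 and 7.82 TPM there, with 1.45 ± 0.12 (edgeR, adjusted p = 1.6e-08), and SPRY4 read 2.38, 2.69 and 2.21 TPM, with 1.47 ± 0.25 (edgeR, adjusted p = 0.00048). All these wells were above every DMSO well. 3 of 9 members were raised at 10000 nM, against 0.589% of the tested genes. 0 were called at 100 nM and at 1000 nM by edgeR and by DESeq2, against 0.342% and 0.00% of genes raised, with 7 members at each dose at an unadjusted p under 0.05, where 22.9% and 5.59% of genes were.

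The dependence on the pyrazolanthrone dose was tested within its own wells, with no DMSO well. The slope was 0.59 ± 0.11 log2 per 10-fold dose for IL17RD, 0.49 ± 0.09 for ETV5 and 0.49 ± 0.12 for ETV1 (edgeR, adjusted p = 0.016, 0.015 and 0.026), 3 of 9 members where 8.88% of genes sloped upward. IL17RD was the only member called for the step from 1000 nM to 10000 nM, at 1.10 ± 0.18 (edgeR, adjusted p = 0.024), where 0.266% of genes were. Without replicate 2 or without replicate 3, 0 slopes of members were called by edgeR, with values of 0.42 to 0.56 and adjusted p of 0.14 to 0.19 for these genes, and scaled to mitochondrial mRNAs the slopes were 0.28, 0.19 and 0.19, not called. ETV1 read 6.73, 5.95 and 4.45 TPM at 10000 nM, a log2 fold change of 0.91 ± 0.15 against DMSO.

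MK-2206 raised IL17RD at 1000 nM, below the dose by which the genes were chosen. IL17RD read 5.85, 6.08 and 4.74 TPM at 100 nM and 7.99, 6.53 and 5.15 at 1000 nM, all above the highest DMSO well (3.98). The log2 fold change was 0.92 ± 0.13 at 100 nM, short of the fold threshold, and 1.09 ± 0.13 at 1000 nM (edgeR, adjusted p = 0.0031 and 1.8e-05), and at 1000 nM it was 0.89 and not called without replicate 2. These values share the DMSO wells with the 10000 nM contrast and are not independent of it. Called members numbered 0 of 9 at 100 nM by edgeR and by DESeq2, with 7 members and 7.43% of genes at an unadjusted p under 0.05, where 1 gene in all, 0.00540%, was raised, and 1 of 9 at 1000 nM, where 0.194% were.

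At 10000 nM MK-2206, IL17RD read 8.10, 10.1 and 10.1 TPM, its highest wells outside the library of 70767 counts, at a log2 fold change of 1.58 ± 0.13. The other members stood at 1.09 ± 0.26 for SPRY4, 0.94 ± 0.17 for ETV1, 0.86 ± 0.14 for SPRY2, 0.59 ± 0.14 for ETV5, 0.57 ± 0.12 for ETV4, 0.40 ± 0.20 for SPRED3, 0.33 ± 0.11 for SPRED2 and 0.04 ± 0.18 for SPRED1. In this contrast 2 of 9 members, IL17RD and SPRY4, were past both thresholds upward, with 0.560% of all genes, and since the genes were chosen with it, nothing is read from that count. SPRY4 did not stay past them with 1 replicate left out (1.04, 1.08 and 1.18 without replicate 1, 2 or 3), scaled to mitochondrial mRNAs (0.86) or against miglitol (0.60). The slope of IL17RD over the 9 MK-2206 wells, which include those 3, was 0.33 ± 0.13 log2 per 10-fold dose and was not called.

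Miglitol, whose target is an enzyme of the gut, moved no member past the thresholds, 0 of 9 at each dose and with the doses pooled, in edgeR, against 0.00% of genes. DESeq2 also called 0 members and called 1, 8 and 3 genes at the rising doses. At an unadjusted p under 0.05 in edgeR were 944 of 18496, 1563 of 18477 and 4195 of 18519 genes, with 2, 7 and 2 of the 9 members. 0 members had a slope with the miglitol dose in edgeR and 1 in DESeq2, against 15.9% of genes in edgeR. With the replicate number as a block, which left 3 DMSO wells, 7.35% of genes and 0 members were called at 10000 nM, and the step from 1000 nM to 10000 nM of miglitol, with no DMSO well, called 3.12% of genes and 0 members in edgeR. 26 of the 27 member and dose values were above 0, with a median of 0.27. With all 9 miglitol wells pooled the log2 fold changes were 0.16 to 0.48, the largest for SPRY4 (0.48 ± 0.18, edgeR adjusted p = 0.48). IL17RD was at 0.38 ± 0.09 (edgeR adjusted p = 0.27). For nilotinib, pyrazolanthrone and MK-2206, 26, 26 and 27 of 27 values were above 0, with medians of 0.57, 0.47 and 0.57. Over all tested genes, the median at each dose of miglitol and of these compounds lay between -0.05 and 0.02. The 27 values of a compound are 9 genes at 3 doses against the same DMSO wells and are not independent. Those of MK-2206 include the 10000 nM contrast by which the genes were chosen.

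All compounds were therefore also set against the 9 miglitol wells in place of DMSO, a comparison chosen after seeing these values. With pyrazolanthrone at 10000 nM, ETV5 at 1.08 ± 0.09 and IL17RD at 1.07 ± 0.15 were called (edgeR, adjusted p = 1.3e-05 and 0.00091), 2 of 9 members with 0.848% of genes called in either direction, and SPRY4 was at 0.99 ± 0.22. With nilotinib, 0 members were called by edgeR at each dose, with 0.00%, 0.0111% and 2.37% of genes, and SPRY2, SPRY4 and IL17RD at 10000 nM were at 0.81, 0.77 and 0.66 (edgeR, adjusted p = 0.0032, 0.042 and 0.012). With MK-2206 at 1000 nM 0 members were called, with 0.0277% of genes, and IL17RD was at 0.68 ± 0.17 (edgeR, adjusted p = 0.31). At 10000 nM, as a description, IL17RD was at 1.19 ± 0.17, with 0.645% of genes called.

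With homoharringtonine 5, 5 and 4 of 9 members were called against miglitol at the rising doses, with 34.4%, 42.5% and 47.0% of genes, and SPRY2 was at 0.68, not called, and ETV4 at -1.18, called, at 10000 nM. With triptolide the counts were 3, 8 and 7, with 33.0%, 44.5% and 47.3% of genes.

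**Figure D4:**
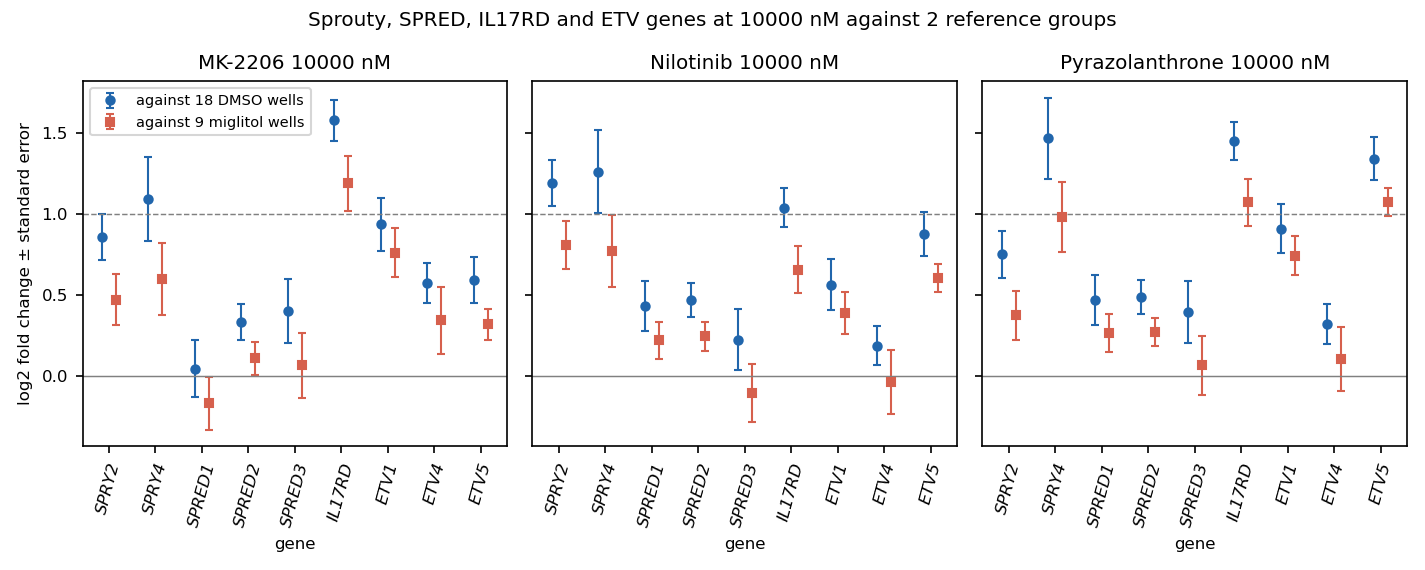
Log2 fold change with standard error of the 9 tested members at 10000 nM of MK-2206, nilotinib and pyrazolanthrone, against the 18 DMSO wells and against the 9 miglitol wells, with the fold threshold dashed. The values against miglitol lie below those against DMSO for all 9 members in each panel. IL17RD and ETV5 with pyrazolanthrone remain above the dashed line. IL17RD with MK-2206 does too, as a description only, since its contrast with DMSO was used to choose the genes.

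Other genes of the pathway were followed as lists. Among 11 further ERK output genes, 10 were tested, and 7, 6 and 5 rose with homoharringtonine at the rising doses, where 15.6%, 21.5% and 23.6% of all tested genes were raised, and 0, 0 and 2 fell, where 19.3%, 20.9% and 23.4% were lowered. EGR1, an immediate early transcription factor, rose most, with log2 fold changes of 5.70 ± 0.41, 6.30 ± 0.41 and 6.00 ± 0.41 (edgeR, adjusted p = 9.1e-12, 2.2e-12 and 3.2e-12). FOSL1, an AP-1 subunit, was at 3.23 ± 0.16 and 2.39 ± 0.17 at 100 nM and 1000 nM (edgeR, adjusted p = 1.1e-14 and 1.2e-11), and MYC was lower at 10000 nM, at -2.01 ± 0.12 (edgeR, adjusted p = 1.6e-13). With triptolide 2, 1 and 0 rose, against 11.4%, 13.9% and 16.2% of genes, and 2, 8 and 8 fell, against 20.9%, 30.4% and 30.2%, so that the counts at 100 nM were near the share over all genes. MYC was at -5.62 at 1000 nM and EGR1 at -5.86 at 10000 nM (edgeR, adjusted p = 1.4e-15 and 1.3e-06). DUSP6, the phosphatase that removes phosphate from ERK, had 0 to 35 counts per well in DMSO (median 14), 2 counts in all at 100 nM, for a ratio to DMSO of 0.0942 (95% exact counting interval 0.0114 to 0.344), and 0 in every well above that dose, so that, against a floor of 3 counts over the 3 wells (the one-sided 95% limit of a count of 0), it was at least 12.2-fold lower at 1000 nM and at least 17.2-fold lower at 10000 nM. The median log2 fold change of this list was 1.99, 1.44 and 1.14 with homoharringtonine and 0.29, -3.84 and -4.73 with triptolide, or -3.71 and -4.09 at the upper doses with DUSP6 at its bound.

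With nilotinib 3, 3 and 5 of the 10 output genes rose against DMSO and 0 fell, where 0.702%, 0.745% and 2.41% of genes were raised, with PHLDA1 at 1.25 ± 0.16, 1.28 ± 0.18 and 1.83 ± 0.15 and DUSP5, a nuclear ERK phosphatase, at 1.14 ± 0.20, 1.23 ± 0.19 and 1.75 ± 0.18. Against miglitol, nilotinib called 0.00%, 0.0111% and 2.37% of all tested genes at the rising doses. The rises at 100 nM were thus not called with that reference for any of these output genes. MK-2206 raised 0, 2 and 1 of them, against 0.00540%, 0.194% and 0.560% of genes, with IER3 at 1.08 ± 0.12 and 1.05 ± 0.12 at 1000 nM and 10000 nM, and pyrazolanthrone 1 (FOSL1, 1.02 ± 0.18 at 100 nM), 0 and 0, against 0.342%, 0.00% and 0.589%. With miglitol 0 were called in edgeR, and the list's median was 0.34, 0.55 and 0.05. Of 32 genes for proteins at or upstream of ERK, the kinase inhibitors and miglitol changed only FGFR3, an FGF receptor, which was lower with 10000 nM nilotinib at -1.28 ± 0.24 (edgeR, adjusted p = 0.00067), 1 of 32 where 0.709% of genes were lowered.

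Homoharringtonine raised 2, 2 and 3 and lowered 4, 4 and 2 of these 32, below the share of all genes (15.6%, 21.5% and 23.6% raised, 19.3%, 20.9% and 23.4% lowered) in each case, with the scaffold gene KSR2 at -1.56 ± 0.21, -1.92 ± 0.22 and -2.13 ± 0.21 and the kinase gene BRAF at 2.34 ± 0.19 at 10000 nM. Triptolide raised 1, 2 and 3, below the share of all genes (11.4%, 13.9% and 16.2%), and lowered 6, 9 and 9, near the share of all genes (20.9%, 30.4% and 30.2%), with the scaffold gene KSR1 at -2.35 ± 0.23, -2.91 ± 0.22 and -2.84 ± 0.17 and the adaptor gene GAB1 at -1.93 ± 0.25, -2.95 ± 0.22 and -2.78 ± 0.20. Of 13 other ETS family genes 12 were tested. Homoharringtonine raised 5 at each dose, where 15.6%, 21.5% and 23.6% of genes were raised, and lowered 2, 3 and 3, near the 19.3%, 20.9% and 23.4% of all genes, with ETS1 at 2.57 ± 0.13 at 100 nM and ERG at -3.63 ± 0.17 at 10000 nM, and triptolide raised 0, 1 and 1 and lowered 3, 5 and 5, where 20.9%, 30.4% and 30.2% of genes were lowered and 11.4%, 13.9% and 16.2% raised, with the repressor gene ETV3 at -4.81 ± 0.19 and -5.27 ± 0.16 at the upper doses. Nilotinib at 10000 nM raised 1 (ETS1, 1.12 ± 0.15), where 2.41% of genes were raised, and the remaining compounds 0.

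Over the means of the 19 groups, the genes whose log2 level followed a member most closely are named as a description (Pearson r among 10719 genes; the points differ in depth and the large triptolide changes weigh on r). SPRY2 was followed most closely by DUSP5 (r = 0.994), which was at r = 0.958 over the 13 groups without triptolide and homoharringtonine, whereas UBOX5 and GOLPH3 (r = 0.991 and 0.989) were at 0.494 and 0.441 there. IL17RD was followed by ETV6, GLI3 and NNMT (r = 0.956, 0.951 and 0.949, and 0.934, 0.721 and 0.877 over the 13 groups). For SPRY4 the nearest genes were DNMBP, ZNF689 and MCL1 (r = 0.986, 0.983 and 0.983, and 0.871, 0.415 and 0.720), and for ETV5 they were XBP1, UNC50 and TBCCD1 (r = 0.976, 0.971 and 0.971, and 0.797, 0.645 and 0.769).

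The positions of the members (GRCh38, GENCODE release 44) bear on whose reads are counted. SPRY2 lies at chr13:80335976-80341126 on the minus strand, with no other annotated gene over it. SPRY4 at chr5:142310427-142326455 and ETV5 at chr3:186046314-186110318 overlap the antisense genes SPRY4-AS1 and ETV5-AS1, ETV4 at chr17:43527844-43579620 overlaps DHX8 on the other strand, and IL17RD at chr3:57089982-57170306 overlaps a ribosomal protein pseudogene. The libraries were made with a stranded kit, but whether counting used the strand is not given in the sources used here, so reads of these overlaps are uncertain. On its own strand ETV5 also overlaps the protein-coding gene DGKG and a noncoding RNA gene. SPRED2 overlaps a long noncoding RNA gene on its own strand. Strand cannot separate the reads of these same-strand overlaps.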

How the data were processed

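Poly(A) RNA-seq libraries (TruSeq stranded mRNA) of 72 U2OS wells were grouped by the compound, dose and replicate number of the labels. The members and the gene lists were chosen with earlier results of these data known. The submitters' processing notes name GRCh38, HTSeq, RSEM and DESeq2, and versions are not given in the sources used here. Per gene, the authors deposited expected counts (RSEM estimates, not normalized) and TPM and FPKM, which the authors scaled to gene length and library. TPM gave levels per well, and FPKM gave the members the same order in DMSO.

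Expected counts were rounded to whole numbers. Tests were run in edgeR 4.0.16 under R 4.3.3, with TMM scaling, filterByExpr with a smallest count of 10, glmQLFit and glmQLFTest, and Benjamini-Hochberg adjustment over all tested genes. Each compound and dose was compared with 18 DMSO wells, triptolide with homoharringtonine, and slopes on log10 dose were fitted within a compound and called on the adjusted p alone. SE is the size of the log2 fold change over the root of F. Depth was 70767 to 68296309 counts, with 3 libraries under 10 mil, and exact intervals cover counting error only. DESeq2 1.42.0, other scalings and filters, left-out wells and libraries, 1 fit over all wells and a replicate block were alternatives. The miglitol reference, the GC covariate (97.7% of tested genes had a GC value) and the 72-well dose steps were added after seeing the data. Scripts were tested on simulated counts.

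Named genes were all members, up to 3 called genes per list, compound and dose by size of change, and the 3 genes most like a member. SPRY3 was followed with the lists. Positions came from GENCODE 44. The study's methods and the labels differ on the middle dose, and the labels were followed.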

Additional observations from a re-analysis of the deposited data

Results flagged for a closer look

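SPRY4 went opposite ways at different doses of triptolide, and the difference between doses was tested. It was raised against DMSO at 100 nM and lowered at 1000 nM and 10000 nM. In the fit over all 72 wells the difference from 100 nM was -5.23 on the log2 scale at 1000 nM (edgeR, adjusted p = 3.4e-14) and -7.01 at 10000 nM (edgeR, adjusted p = 7.1e-18). The rise at 100 nM rests on 200 and 66 counts in replicates 1 and 3, since replicate 2 holds 70767 counts in all and 0 for this gene. Scaled to mitochondrial mRNAs the 100 nM value was -0.10 and not called, while the values at the upper doses were -6.22 and -7.98.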

How the results depend on the processing

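For the single members named above, 643 of 698 alternative values kept their direction and side of the threshold, 52 kept the direction but lost the call, and 3 changed sign, all when scaled to mitochondrial mRNAs: SPRY4 at 100 nM triptolide (-0.10), ETV4 between triptolide and homoharringtonine at 10000 nM (-1.37) and the nilotinib slope of ETV5 (-0.32). Fits in which a member was not tested are not among the 698. Requiring 10 counts in every well thus entered only 7 values, all kept, and the calls it dropped are not counted as lost. Of 331 alternative counts of called members, 271 stayed within 1.5 times the reported count, and these include counts of 0 in both. Both tallies include 10000 nM MK-2206, the first with IL17RD and SPRY4. That is the contrast by which the genes were chosen, and nothing is read from its part in the tallies or from its counts below.

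Requiring 10 counts in every well left 4 of the 9 members tested (1 at 100 nM triptolide) because of the shallow libraries, and gave 0 calls for homoharringtonine and nilotinib at each dose, for MK-2206 at 1000 nM and 10000 nM and for triptolide at 100 nM, 1 for pyrazolanthrone at 10000 nM and 3 for triptolide at 1000 nM and at 10000 nM. With the adjusted p alone the counts were 8 for homoharringtonine at 10000 nM (74.0% of genes), 2, 5 and 6 for MK-2206 at the rising doses (0.0648%, 1.52% and 3.15%), 6, 7 and 6 for nilotinib (9.08%, 3.95% and 14.4%), 4 and 6 for pyrazolanthrone at 100 nM and 10000 nM (4.77% and 7.65%) and 3 for triptolide at 100 nM (56.8%). Against miglitol they were 0 and 1 for MK-2206 at 1000 nM and 10000 nM, 0 for nilotinib at each dose and 3 for triptolide at 100 nM.

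Scaled to mitochondrial mRNAs they were 1 raised for MK-2206 at 10000 nM (0.151% of genes), 5, 2 and 0 raised for nilotinib (3.74%, 0.729% and 0.919%), 8 lowered for triptolide at 100 nM (74.5%) and 8 lowered against homoharringtonine at 100 nM (69.2%), and the slopes called, all downward, were 6 for miglitol (62.6%), 6 for nilotinib (58.8%), 1 for pyrazolanthrone (19.8%) and 8 for triptolide (53.2%). At 100 nM triptolide the count was 3 by library size and 2 with no filter, where SPRY1 was added on 10 counts in 1 well. The GC dependence as a covariate was not run for triptolide and homoharringtonine. With it the count was 2 raised for MK-2206 at 1000 nM (0.302% of genes) and 1 raised for pyrazolanthrone at 100 nM (0.445%). DESeq2 called 1 slope for miglitol and 2 for nilotinib. Where not shown above, the cause was not tested. Counts in this section with no share over all genes beside them show only how the calls vary and are not read as a result about the members.

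Without 1 treated replicate the counts ran from 0 to 1 for MK-2206 at 100 nM (1 without replicate 2), 1 to 2 at 10000 nM (1 without replicate 2 or 3, and ETV1 in place of SPRY4 without replicate 1), 1 to 3 for nilotinib at 100 nM (3 without replicate 1), 0 to 2 at 1000 nM (0 without replicate 1, 2 without replicate 3) and 1 to 3 for triptolide at 100 nM (3 without replicate 1). Slopes called ran from 2 to 3 for homoharringtonine (2 without replicate 2), 0 to 1 for nilotinib and 0 to 4 for pyrazolanthrone (0 in both without replicate 2 or 3).

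Taken over all groups, replicate numbers did not pair the wells: over 52 same-numbered pairs of treated and DMSO wells the mean correlation of how each well departs from its group was -0.0659 (-0.885 to 0.869), and over 50 such pairs between doses of a compound it was 0.0317. By group, the mean with DMSO ran from -0.563 for MK-2206 at 100 nM to 0.561 for MK-2206 at 1000 nM, over 3 pairs each. Between doses it was highest for pyrazolanthrone and nilotinib, at 0.283 and 0.256 over 9 pairs each with 7 and 4 over 0.1, against -0.154 and -0.142 for wells of different number. Departures within a group of 3 wells largely cancel, so the values for different numbers are tied to the others and are no independent reference. With the replicate number as a block, and DMSO replicates 1 to 3 alone, the counts were 4 for MK-2206 at 10000 nM, 0 and 0 for nilotinib at 100 nM and 1000 nM and 3 for the nilotinib slopes, and ETV1 lost its calls at 1000 nM homoharringtonine (-0.93), at 1000 nM triptolide (-0.90) and for the homoharringtonine slope (0.34).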
